A study of Mus musculus with 33 samples.

Results

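SMART-seq from 50 pg of mRNA was set against standard RNA-seq from 20 ng of mRNA in mouse embryonic stem cells that had been treated with activin A at 3 ng/mL. The comparison holds 4 of the 33 libraries of the series, picked by their labels and by no measured value: 2 SMART-seq libraries and 2 standard RNA-seq libraries, each pair labelled as technical replicates. All 4 came from embryoid bodies grown without serum, dispersed at day 2 of differentiation, treated for the following days and harvested at day 4. In SMART-seq the cDNA was amplified uniformly for 13 cycles before sequencing, whereas the standard libraries followed the usual mRNA-seq procedure. A second set of 3 libraries, from cells treated with activin A at 100 ng/mL (2 SMART-seq libraries and 1 standard library), gave the same contrast in libraries that share none with the first. The labels name no strain or clone, and do not say whether both methods started from one mRNA preparation, so method, amount of mRNA, sequencing depth and preparation cannot be told apart.

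SMART-seq copies mRNA from its poly(A) tail and adds a primer site where the reverse transcriptase reaches the 5′ end, so that a molecule is amplified only if it was copied from end to end. Standard mRNA-seq of that period copies fragments of mRNA from random primers, and each piece can be sequenced on its own. Activin A signals through the receptors of Nodal, and at day 4 such cultures hold cells that express genes of the epiblast, the primitive streak and the early endoderm.

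The SMART-seq libraries held 28454626 and 30609013 counts and the standard libraries 10738438 and 10409094, yet fewer genes had a count in SMART-seq: 13556 and 13440 genes, against 15877 and 15842 in the standard libraries, out of 21844. At an equal depth of 10409094 counts, the expected numbers were 12809 and 12667 genes in SMART-seq and 15843 and 15842 in standard RNA-seq. The technical pairs differed in how closely they repeated each other. The chi-square statistic per degree of freedom between the 2 libraries of a pair was 39.8 for SMART-seq and 1.32 for standard RNA-seq, where 1 is pure counting noise; the standard pair was therefore kept as 2 libraries, but it differed by little more than that noise. All p-values measure technical spread only, since nothing in the labels tells of separate cultures.

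Of 12951 genes tested with edgeR's quasi-likelihood test (Benjamini-Hochberg adjusted p under 0.05), 3765 (29.1%) were higher in SMART-seq and 3438 (26.5%) were lower. At least 2-fold differences made up most of them, with 3367 genes (26.0%) higher and 2969 (22.9%) lower. Of these calls, 2180 of the 3765 and 893 of the 3438 remained in the same direction in all 4 fits that left out 1 library. The counts depend on which pair sets the spread: without a SMART-seq library, the fits called 5258 and 5297 genes higher and 6273 and 6197 lower, and without a standard library 2219 and 2202 higher and 913 and 925 lower. Values are given here as CPM (read counts normalised to library size) with TMM scaling, which sets most genes of middling abundance level between libraries. Scaled by library totals alone, the median log2 change of all tested genes moved by -1.55, to -1.75 from -0.20, and the calls split into 1968 higher and 6951 lower. A log2 change between 0 and about 1.55 here therefore turns negative on library totals, and classes of genes are best read relative to the median of all genes under the same scaling.

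Transcript length ordered the genes. Genes whose longest listed transcript was under 1 kb had a median log2 change of 3.59 (SMART-seq over standard RNA-seq), 3.79 above the median of all genes. The median was 1.73 for 1 to 2 kb, -0.19 for 2 to 4 kb, -1.32 for 4 to 8 kb and -1.90 for transcripts of at least 8 kb. The classes ran in one order from short to long, with the shortest favoured in SMART-seq and the longest in standard RNA-seq. Among 763 tested genes under 1 kb, 634 were higher in SMART-seq and 10 were lower. Among 627 tested genes of at least 8 kb, 28 were higher and 391 were lower. On library totals the medians of the classes were 2.04, 0.18, -1.74, -2.87 and -3.45, in the same order. Across 12669 tested genes with a length, Spearman's rho of log2 change and length was -0.60, a value across genes, which are not independent replicates.

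**Figure D1:**
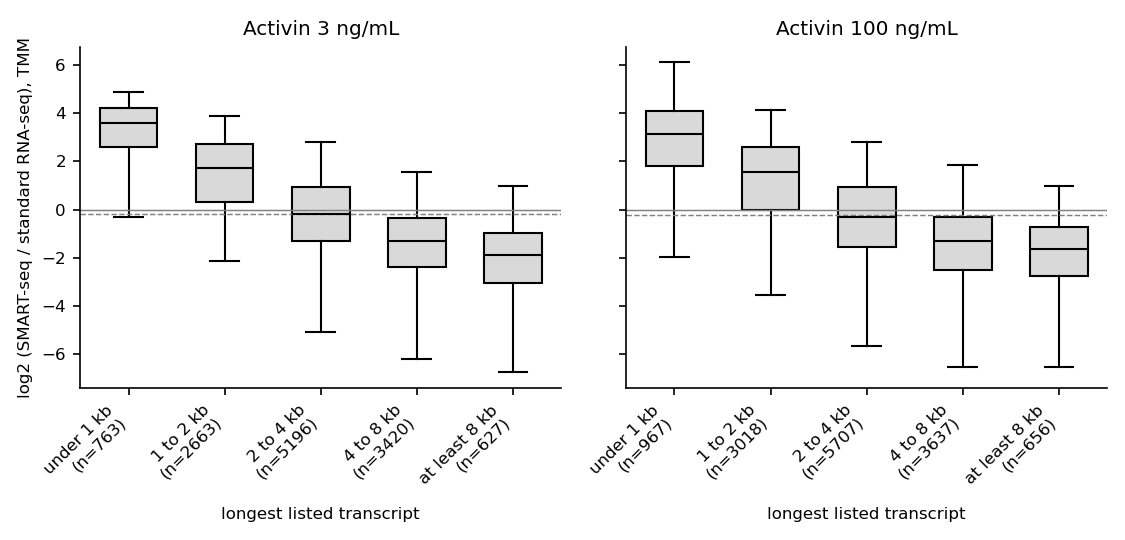
Log2 ratio of SMART-seq over standard RNA-seq (vertical axis, TMM-scaled) for tested genes in 5 classes of longest listed transcript, at activin 3 ng/mL (left) and 100 ng/mL (right). Boxes span the quartiles with the median as a line, whiskers run over the middle 90% of genes, the dashed line is the median of all genes; at both doses the medians step down from 3.59 and 3.14 under 1 kb to -1.90 and -1.62 at 8 kb and over.

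The share of the reads moved with it. Genes under 1 kb took 31.4% and 30.3% of all counts in SMART-seq, against 7.08% and 7.09% in standard RNA-seq. Genes of at least 8 kb took 1.03% and 1.07% of counts in SMART-seq, against 7.35% and 7.30% in standard RNA-seq. Neither share overlapped between the methods, and within each method the 2 libraries lay close together.

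The same order appeared between transcripts of one gene, a comparison chosen after seeing the data. Of 2076 genes with exactly 2 listed transcripts of known length, 147 had at least 20 counts from each transcript in each method. Where the longer transcript was at least 2 times as long as the shorter, the balance between them lay further to the shorter transcript in SMART-seq in 28 of 33 genes, with a median shift of 2.67 on the log2 scale. For a length ratio of 1.5 to 2 the shift was in that direction in 17 of 21 genes (median 0.92), and below 1.5 in 50 of 93 (median 0.07). The examples were chosen after their values were seen. Birc5, which encodes survivin, an inhibitor of apoptosis needed for cell division, shows it in counts. Its transcript of 947 bases had 586 and 690 counts in SMART-seq, against 96 and 105 in standard RNA-seq. Its transcript of 3334 bases had 149 and 118 counts in SMART-seq, against 250 and 209 in standard RNA-seq. The longer form had more counts than the shorter in both standard libraries and fewer in both SMART-seq libraries. Counts were not divided by transcript length, so they do not rank the 2 forms by abundance. Naca, a chaperone subunit of nascent polypeptides with a long muscle form, had 25 and 0 counts from its 6745-base transcript in SMART-seq, against 168 and 144 in standard RNA-seq, while its 885-base transcript had 4478 and 4682 in SMART-seq, against 260 and 276 in standard RNA-seq. Ssbp1, a mitochondrial single-strand DNA-binding protein, was an exception, with a shift of -1.48.

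Base composition had a weaker and separate gradient, also looked at after the data were seen. Genes with a GC content under 45% had a median log2 change of 0.14, and those with at least 60% had -1.47. The gradient was present within each length class: among genes of 1 to 2 kb the median was 2.72 under 45% GC and -0.74 at 60% and over, and among genes of 4 to 8 kb it was -0.71 and -3.19.

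The cytosolic ribosomal proteins, which with rRNA form the ribosome, lay far above the median of all genes. Of 82 genes, all were tested, 80 were higher in SMART-seq (against 29.1% of all genes) and none was lower; 75 of these remained in all 4 fits with 1 library left out. The median log2 change was 3.32, and the genes together took 27.6% and 27.0% of all counts in SMART-seq, against 7.70% and 7.71% in standard RNA-seq. The Wilson 95% intervals, which cover counting error only, ran from 26.9 to 27.0% in the second SMART-seq library and from 7.69 to 7.72% in each standard library. Ribosomal protein genes have many processed copies in the genome and short, similar transcripts, so counts of unique reads may divide or lose some of their reads.

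Panels of 6 ribosomal protein genes each, with short and with long transcripts, give the levels by library. Rpl41, which encodes the smallest protein of the large subunit, had 24400 and 22200 CPM in SMART-seq, against 954 and 967 CPM in standard RNA-seq (log2 change 4.60 ± 0.06, SE; adjusted p = 1.84e-05 by edgeR). Rps29 of the small subunit had 6490 and 5820 CPM in SMART-seq, against 302 and 304 CPM in standard RNA-seq (log2 change 4.35 ± 0.07). Rpl3, one of the longest of the class with a transcript of 1351 bases, had 14200 and 13700 CPM in SMART-seq, against 1750 and 1760 CPM in standard RNA-seq (log2 change 2.99 ± 0.03). All 3 were far apart between methods, and the short Rpl41 and Rps29 further than the longer Rpl3. Rps28, Rps21 and Rpl39 lay between 3.36 and 3.78, and Rps3, Rplp0, Rpsa and Rpl4 between 2.64 and 3.49. Over all 82 genes, the 24 with transcripts under 600 bases had a median of 3.75 and the 24 of at least 1000 bases a median of 3.04 (Spearman's rho with length -0.42, across genes).

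Rps2 and Rpl19 were the 2 members that did not pass the test; Rpl19 was chosen after its values were seen. Rps2 had 1320 and 739 CPM in SMART-seq, against 518 and 528 CPM in standard RNA-seq (log2 change 0.98 ± 0.30, adjusted p = 0.0593 by edgeR). Rpl19 had 37.7 and 35.4 CPM in SMART-seq, against 32.2 and 27.2 CPM in standard RNA-seq (log2 change 0.30 ± 0.17, adjusted p = 0.203 by edgeR). The libraries of the 2 methods did not overlap in either gene, but the distance was small beside the rest of the class. Rpl38 was the lowest member to pass: 47.2 and 42.5 CPM in SMART-seq, against 21.7 and 22.6 CPM in standard RNA-seq (log2 change 1.02 ± 0.15). Rpl38 has 3 listed transcripts and Rpl19 has 2, and on library totals all 3 genes turned lower in SMART-seq, with log2 changes of -0.58, -1.26 and -0.54 for Rps2, Rpl19 and Rpl38.

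Messenger RNAs of ribosomal proteins are known for a terminal oligopyrimidine tract, a run that begins with C at the 5′ end, the end at which SMART-seq adds its primer site. The start regions of the 2 genes of the class with the largest differences, Rps19 and Rpl34, and of the 2 with the smallest, Rpl19 and Rps2, are shown from 30 bases before to 20 bases after the RefSeq start (GRCm38.p6, read along the gene's strand). Capitals mark a C followed by at least 4 bases that are each C or T, on the transcribed strand, where one lies within 5 bases before to 15 bases after the start.
Rps19 (chr7:24884562-24884611, plus strand, log2 change 5.01): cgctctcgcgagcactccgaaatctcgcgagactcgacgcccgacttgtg
Rpl34 (chr3:130730379-130730428, minus strand, log2 change 4.80): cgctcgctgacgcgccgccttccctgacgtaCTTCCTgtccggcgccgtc
Rpl19 (chr11:98026680-98026729, plus strand, log2 change 0.30): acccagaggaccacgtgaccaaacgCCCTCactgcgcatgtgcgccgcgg
Rps2 (chr17:24720033-24720082, plus strand, log2 change 0.98): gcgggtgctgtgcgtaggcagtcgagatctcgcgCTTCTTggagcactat
Such a run lay in 37 of 72 start windows of the class (51.4%), against 24.3% of all 32851 RefSeq start windows. Of the 82 genes, 61 had a start window. The 35 with a run had a median log2 change of 3.21 and the 26 without one a median of 3.50, and Rps19, the highest, has none in this window. The windows follow the RefSeq start, so a run at another start would be missed. Whether the tract has a part in the difference was not tested.

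**Figure D2:**
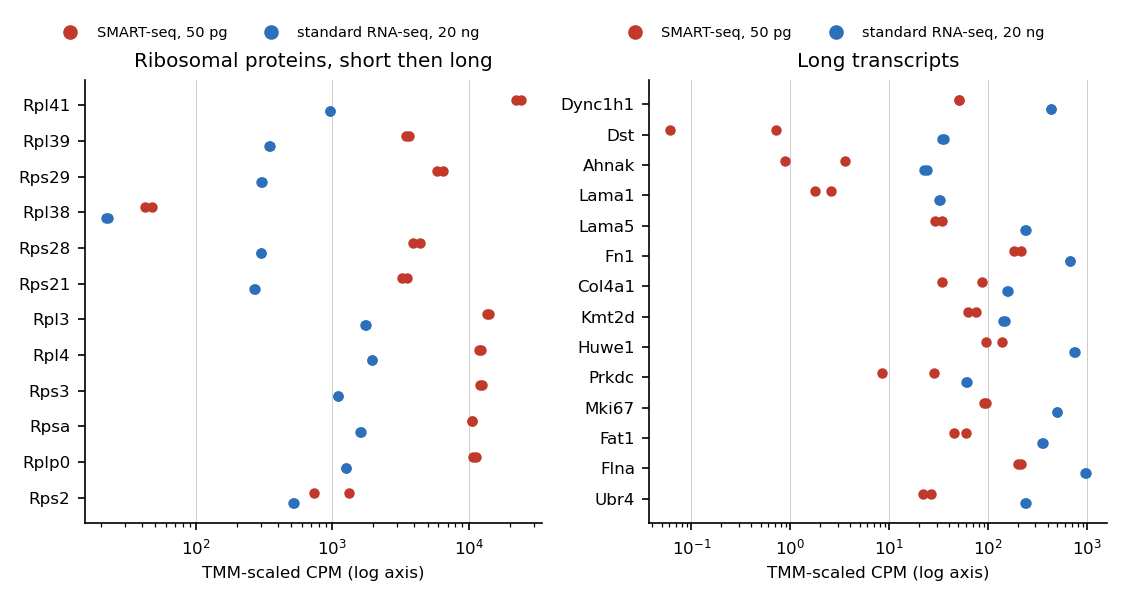
TMM-scaled CPM (logarithmic horizontal axis) in each library of the 3 ng/mL comparison, with SMART-seq points above standard RNA-seq points for each gene. Left, 6 ribosomal protein genes with short transcripts (Rpl41 to Rps21) and 6 with long ones (Rpl3 to Rps2), all with SMART-seq to the right; right, 14 genes with long transcripts, all with SMART-seq to the left.

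Other classes, with median transcript lengths from 763 to 1526.5 bases, moved with the ribosomal proteins. Of 75 nuclear-encoded genes of oxidative phosphorylation, 70 were higher in SMART-seq and none was lower (median 3.99), against 29.1% and 26.5% of all genes. Uqcr10, a small subunit of respiratory complex III with a transcript of 434 bases, had 1180 and 1170 CPM in SMART-seq, against 27.8 and 27.6 CPM in standard RNA-seq (log2 change 5.40 ± 0.04). Of 77 mitochondrial ribosomal proteins, 71 were higher and none was lower (median 3.29), and Mrpl33 had 8482 and 8382 counts in SMART-seq, against 294 and 282 counts in standard RNA-seq. Of 34 proteasome subunits, 32 were higher and 1 was lower (median 2.89). Psmb3, of the proteasome core, had 3010 and 2850 CPM in SMART-seq, against 131 CPM in each standard library. Psmd3, a subunit of the proteasome lid, was the lower one, with 30.4 and 28.5 CPM in SMART-seq, against 171 and 175 CPM in standard RNA-seq; it was named after its values were seen.

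Translation factors and cell cycle genes, whose members are of mixed length, had calls in both directions. Over all tested genes 29.1% were higher and 26.5% were lower, so calls in both directions are not particular to these classes. Of 38 translation factors, 23 were higher and 11 lower in SMART-seq; the higher ones had a median transcript length of 1794 bases and the lower ones 3647 bases. Within initiation complex eIF3, Eif3k (774 bases) had 2360 and 2180 CPM in SMART-seq, against 157 and 166 CPM in standard RNA-seq. Eif3a (5125 bases), its largest subunit, chosen after its values were seen, had 286 and 356 CPM in SMART-seq, against 884 and 877 CPM in standard RNA-seq. The order of these subunits by CPM thus differed between the methods: Eif3k had the higher CPM in both SMART-seq libraries and Eif3a in both standard ones. CPM was not divided by transcript length, so it does not rank genes of unlike length by abundance. Of 29 cell cycle genes, 12 were higher (median length 2726 bases) and 6 lower (4244 bases). Cdk1, the kinase that drives mitosis, had 1160 and 1090 CPM in SMART-seq, against 130 and 133 CPM in standard RNA-seq, although its longest listed transcript has 4375 bases. Mki67, the proliferation antigen Ki-67, had 91.0 and 94.2 CPM in SMART-seq, against 494 and 492 CPM in standard RNA-seq. Of 17 glycolysis genes, 9 were higher and none was lower. Of 14 genes often used as expression references, 12 were higher and 1 was lower; this was Tfrc, the transferrin receptor, with a transcript of 4890 bases, named after its values were seen. Gapdh, whose copies elsewhere in the genome make its unique counts uncertain, had 370 and 352 CPM in SMART-seq, against 51.9 and 48.9 CPM in standard RNA-seq; its log2 change was 2.84 ± 0.07, and Hprt had 3.64 ± 0.06. On library totals the medians of glycolysis, cell cycle and reference genes were -0.91, -1.38 and 0.06.

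**Figure D3:**
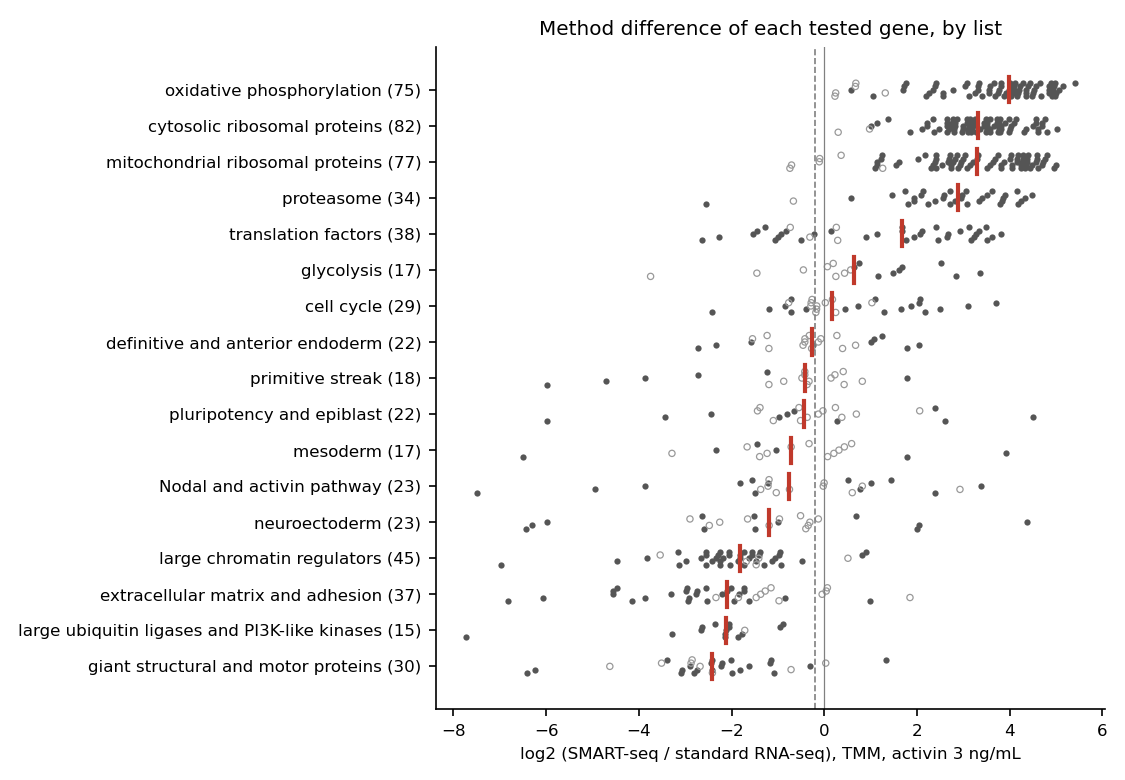
Log2 ratio of SMART-seq over standard RNA-seq (horizontal axis, TMM-scaled, activin 3 ng/mL) of each tested member of 17 gene lists, with the number tested in brackets. Filled points passed the test, open points did not, red bars are list medians and the dashed line is the median of all genes (-0.20); the lists run from oxidative phosphorylation at 3.99 down to giant structural and motor proteins at -2.42.

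The 4 lists built around long transcripts lay below the median of all genes. Of 30 giant structural and motor proteins, 21 were lower and 1 was higher (median -2.42), against 26.5% of all genes lower. Of 45 tested large chromatin regulators, 38 were lower and 2 were higher (median -1.83, which is 1.63 below the median of all genes); 27 of the 38 remained in all 4 fits with 1 library left out. Of 15 large ubiquitin ligases and PI3K-like kinases, 14 were lower and none higher (median -2.13). Of 37 tested matrix and adhesion genes, 25 were lower and 1 was higher (median -2.09). Macf1, Vps13d, Setd1b, Chd7 and Usp34 were on these lists and are not analysed here.

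Dync1h1, the heavy chain of cytoplasmic dynein, had 50.3 and 50.1 CPM in SMART-seq, against 430 and 426 CPM in standard RNA-seq (log2 change -3.09 ± 0.05, adjusted p = 2.26e-05 by edgeR). Huwe1, a large ubiquitin ligase, had 139 and 95.7 CPM in SMART-seq, against 754 and 734 CPM in standard RNA-seq (log2 change -2.66 ± 0.21). Chd4, the remodeller of the NuRD complex, had 67.7 and 69.0 CPM in SMART-seq, against 589 and 602 CPM in standard RNA-seq (log2 change -3.12 ± 0.05). In all 3 genes both SMART-seq libraries lay far below both standard ones. Dst, a giant cytoskeletal linker with a transcript of 23251 bases, was nearly lost: 1 and 13 counts (0.0612 and 0.718 CPM) in SMART-seq, against 654 and 607 counts (35.5 and 34.1 CPM) in standard RNA-seq. Fn1, the matrix protein fibronectin, had 183 and 213 CPM in SMART-seq, against 664 and 663 CPM in standard RNA-seq (log2 change -1.74 ± 0.09). Kmt2d, a histone methyltransferase with a transcript of 19823 bases, fell least of the 12 that passed, with 74.7 and 62.7 CPM in SMART-seq, against 142 and 146 CPM in standard RNA-seq (log2 change -1.07 ± 0.12). Of the 14 genes of the panel, 12 were lower; Prkdc (-1.72 ± 0.63, adjusted p = 0.0867 by edgeR) and Col4a1 (-1.37 ± 0.49, adjusted p = 0.0809) did not pass. Their SMART-seq libraries lay apart from each other, at 8.44 and 28.2 CPM for Prkdc and at 87.0 and 34.2 CPM for Col4a1. Members that went the other way, named after their values were seen, were Sptbn1, a spectrin of 9107 bases (209 and 181 CPM in SMART-seq, against 76.1 and 78.7 CPM in standard RNA-seq), the chromatin regulators Smarca5 and Arid1b (log2 changes 0.90 ± 0.09 and 0.81 ± 0.17) and the matrix protein Sparc of 2300 bases (0.99 ± 0.06). All 4 had negative log2 changes on library totals, at -0.22 for Sptbn1, -0.65 for Smarca5, -0.74 for Arid1b and -0.56 for Sparc.

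Regulators of lineage, most of them transcripts of 2 to 4 kb at low or middling level, shifted less as a class. Loss of calls with 1 library left out was common over all tested genes, as their counts above show. Where such loss is given below for lineage genes, it is therefore not particular to them. In a panel of 24 regulators, 21 were tested, 2 were higher and 5 were lower in SMART-seq, against 29.1% and 26.5% of all genes, so the share of lower genes was near that of all genes. The panel's median log2 change was -0.42, which is 0.22 below the median of all genes. On library totals the panel's median was -1.97. Only Mixl1 among the 2 higher and Lhx1 among the 5 lower remained in all 4 fits with 1 library left out.

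Genes of the primitive streak did not move as one. T (Brachyury), the T-box factor of streak and mesoderm, had 355 and 428 CPM in SMART-seq, against 358 and 351 CPM in standard RNA-seq (log2 change 0.14 ± 0.11, adjusted p = 0.311 by edgeR). Mixl1, a homeobox gene of the streak, had 127 and 103 CPM in SMART-seq, against 33.0 and 33.8 CPM in standard RNA-seq (1.79 ± 0.14, adjusted p = 0.0017). Eomes, the T-box factor needed for endoderm, had 10 and 4 counts (0.612 and 0.221 CPM) in SMART-seq, against 92 and 129 counts (4.99 and 7.25 CPM) in standard RNA-seq (-3.86 ± 0.73, adjusted p = 0.0171). On library totals T had a log2 change of -1.41. The T libraries overlapped between methods, while those of Mixl1 and Eomes lay apart in opposite directions. Lhx1, a LIM homeobox gene of anterior streak and endoderm, had 21.2 and 22.1 CPM in SMART-seq, against 146 and 139 CPM in standard RNA-seq (-2.72 ± 0.10). Gsc, the organizer gene Goosecoid, had 12.1 and 3.70 CPM in SMART-seq, against 18.2 and 18.0 CPM in standard RNA-seq and did not pass (adjusted p = 0.192). Over the whole list of the streak, 1 of 18 tested genes was higher and 5 were lower, against 29.1% and 26.5% of all genes; of the 5 lower ones, only Lhx1 remained in all 4 fits with 1 library left out. Fgf8, the growth factor of the streak, was among the lower ones with 2 counts in each SMART-seq library, against 55 and 61 counts in standard RNA-seq; it has 4 listed transcripts that share sequence.

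Foxa2, Sox17, Hhex, Gata4 and Gata6, transcription factors of the endoderm, had no call, unlike Lhx1 and Eomes above. Foxa2 had 56.3 and 84.8 CPM in SMART-seq, against 93.0 and 96.0 CPM in standard RNA-seq, and Sox17 had 491 and 811 counts in the deeper SMART-seq libraries, against 925 and 886 counts in standard RNA-seq; neither passed (adjusted p = 0.196 and 0.215 by edgeR). Both genes were lower in both SMART-seq libraries than in either standard one, and the SMART-seq libraries differed from each other by more than the nearer of them differed from the standard libraries. Other genes of the endoderm list rose: Krt18, an epithelial keratin, had 1020 and 872 CPM in SMART-seq, against 276 and 271 CPM in standard RNA-seq, and the secreted Wnt antagonist Dkk1 had 152 and 118 CPM in SMART-seq, against 32.6 and 32.5 CPM in standard RNA-seq. On library totals Krt18 and Dkk1 had log2 changes of 0.23 and 0.49. Of 22 tested genes of this list, 5 were higher, with a median length of 1739 bases, and 4 were lower, with 5148 bases; both shares are below the 29.1% and 26.5% of all genes. All 5 higher calls and 1 of the 4 lower ones remained in all 4 fits with 1 library left out.

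Components of the Nodal and activin pathway, through which the treatment acts, had calls in both directions. Of 23 tested genes, 6 were higher, with a median length of 1680 bases, and 7 were lower, with 5090 bases, shares near the 29.1% and 26.5% of all genes. With 1 library left out, 3 of the 6 and 3 of the 7 remained in all 4 fits. The co-receptors of Nodal, Cfc1 (Cryptic) and Tdgf1 (Cripto), were higher: Cfc1 had 240 and 229 CPM in SMART-seq, against 22.2 and 22.9 CPM in standard RNA-seq, and Tdgf1 had 662 and 716 CPM in SMART-seq, against 128 and 134 CPM in standard RNA-seq. Acvr1b, the type I receptor of activin, with a transcript of 4418 bases, had 2.45 and 2.54 CPM in SMART-seq, against 37.0 and 35.8 CPM in standard RNA-seq (log2 change -3.86 ± 0.21, adjusted p = 0.000456 by edgeR). Within one pathway the co-receptors and the receptor thus lay on opposite sides of the median of all genes.

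Of the neural regulators in the panel, Pax6 and Lhx2 had 0 counts in both SMART-seq libraries. Pax6, the paired-box gene of eye and forebrain, had 0 counts in both SMART-seq libraries, against 12 and 10 counts in standard RNA-seq; set against a floor of 3 counts over the 2 SMART-seq libraries, it was at least 6.98-fold lower. Lhx2, a LIM homeobox gene of the forebrain, had 0 counts in both SMART-seq libraries, against 11 and 9 counts in standard RNA-seq, and was at least 6.34-fold lower. Both bounds cover counting error only, and the SMART-seq replicates differed by far more than counting error. Sox1, an early neural marker, had 13 and 0 counts in SMART-seq, against 35 and 34 in standard RNA-seq. Sox1 was thus present in 1 SMART-seq library and at 0 in the other, while the standard pair differed by 1 count. Hnf4a of endoderm had 0 counts in both SMART-seq libraries, against 5 and 9 in standard RNA-seq, and Hand1 of mesoderm had 0 and 15 in SMART-seq, against 6 and 5 in standard RNA-seq. Neurog2 had at most 2 counts in any of the 4 libraries. Not every neural gene was low: Hesx1, a homeobox gene of the anterior neural plate with a transcript of 1141 bases, had 1903 and 1630 counts in SMART-seq, against 89 and 91 counts in standard RNA-seq (log2 change 4.37 ± 0.20). Over the neural list, 4 of 23 tested genes were higher, with a median length of 1741 bases, and 8 were lower, with 3275 bases, against 29.1% and 26.5% of all genes. Of these calls, 3 of the 4 and 2 of the 8 remained in all 4 fits with 1 library left out.

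Pluripotency regulators did not move as one either. Pou5f1 (Oct4) had 401 and 378 CPM in SMART-seq, against 328 and 315 CPM in standard RNA-seq (log2 change 0.28 ± 0.05, adjusted p = 0.0174 by edgeR), and -1.28 on library totals. Nanog had 8.50 and 8.06 CPM in SMART-seq, against 9.77 and 11.6 CPM in standard RNA-seq, and Sox2 had 30.7 and 26.2 CPM in SMART-seq, against 40.5 and 40.6 CPM in standard RNA-seq; neither passed. Dnmt3b, the DNA methyltransferase of the epiblast, had 16 and 7 counts in SMART-seq, against 126 and 144 in standard RNA-seq, and its 5 listed transcripts share sequence, so unique counts may be low in both methods.

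**Figure D4:**
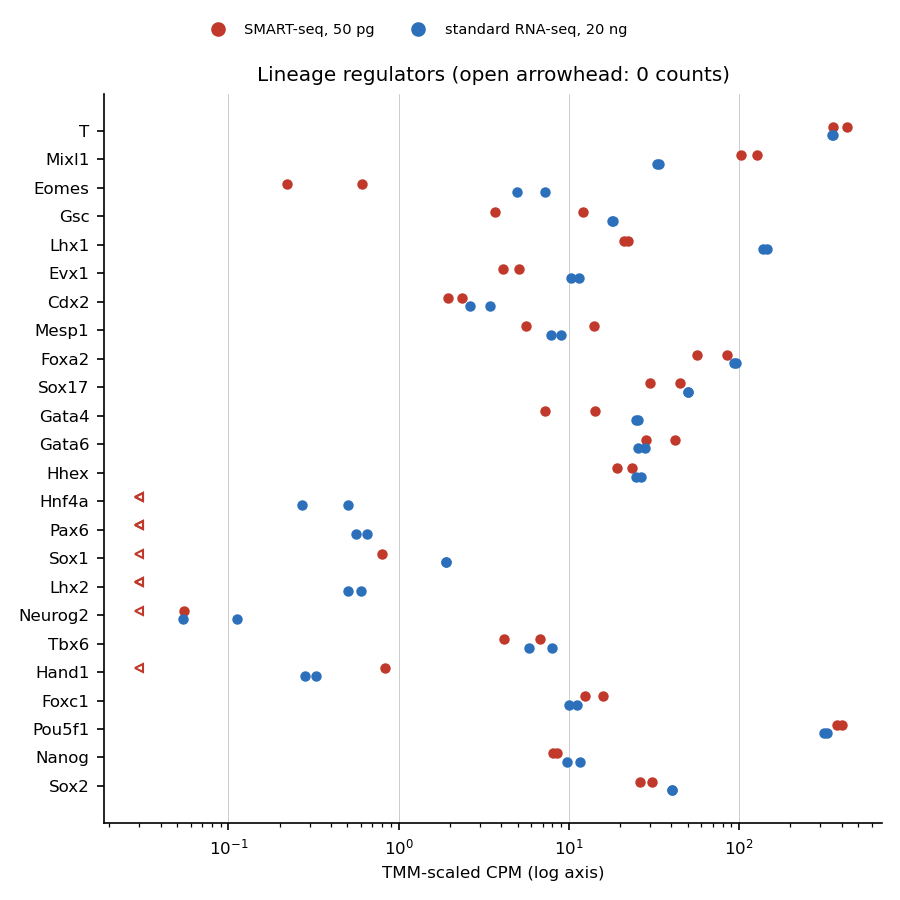
TMM-scaled CPM (logarithmic horizontal axis) of 24 lineage regulators in each library of the 3 ng/mL comparison, SMART-seq above standard RNA-seq for each gene. Open arrowheads at the left edge stand for 0 counts: Pax6, Lhx2 and Hnf4a are at 0 in both SMART-seq libraries, and Sox1, Neurog2 and Hand1 in 1 of them.

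Loss to 0 was common among rare genes in SMART-seq. Of 1719 genes with a mean of 10 to 30 standard counts at equal depth, 244 (14.2%, Wilson 95% interval 12.6 to 15.9%) had 0 counts in both SMART-seq libraries, and a further 421 (24.5%) had 0 in 1 of the 2. In reverse, of 1792 genes with a mean of 10 to 30 SMART-seq counts, 7 (0.391%) had 0 counts in both standard libraries. The classes rest on library totals, on which the median log2 change of all tested genes was -1.75. A class of the same counts therefore does not hold genes of equal level in the 2 directions. At 30 to 100 standard counts the share at 0 in both SMART-seq libraries was 4.43%, at 100 to 300 it was 0.468%, and over 300 it was 1 of 5992 genes. The SMART-seq libraries were the deeper ones as deposited. Length added to rarity: in the class of 10 to 30 standard counts, 1 of 96 genes under 1 kb was at 0 in both SMART-seq libraries, against 18 of 53 genes (34.0%) of at least 8 kb. These intervals leave out error from amplification, after which reads no longer stand for separate molecules.

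**Figure D5:**
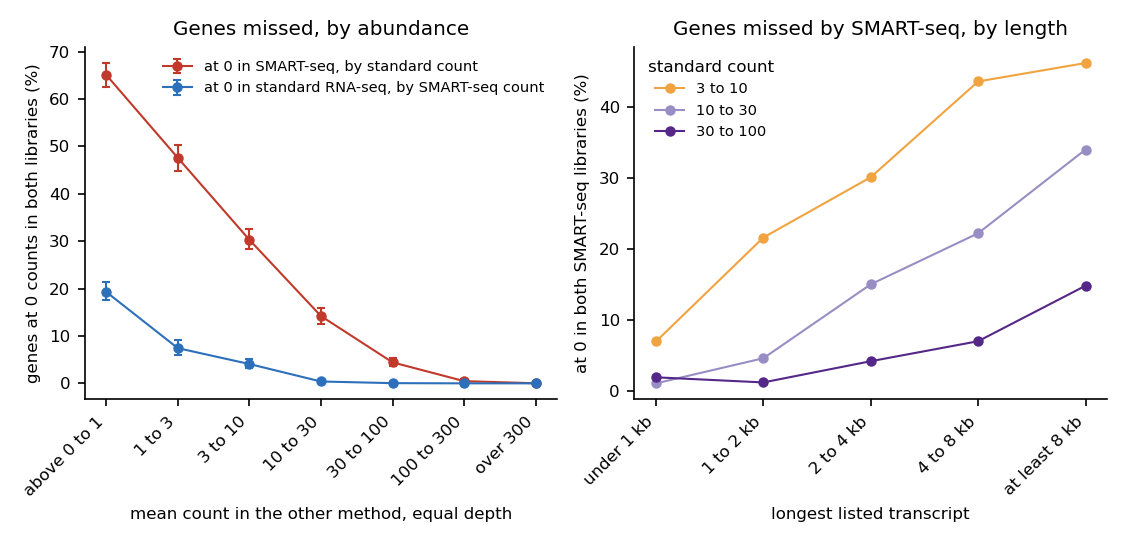
Left, share of genes with 0 counts in both libraries of one method (vertical axis, percent, with Wilson 95% intervals) by the mean count in the other method at equal depth (horizontal axis); right, share of genes at 0 in both SMART-seq libraries by longest listed transcript, for 3 classes of standard count. At 10 to 30 counts 14.2% of genes were at 0 in SMART-seq and 0.391% in the reverse direction, and the shares at 0 were higher for long transcripts than for short ones.

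Rare genes that were seen in SMART-seq were seen unevenly. Among genes with a mean of 10 to 30 counts at equal depth, the 2 SMART-seq libraries were at least 2-fold apart for 53.6% of genes, against 4.01% between the 2 standard libraries. Among genes over 1000 counts the shares were 0.134% in SMART-seq and 0% in standard RNA-seq. The SD over genes of the log2 ratio between technical replicates was 2.42 in SMART-seq and 0.48 in standard RNA-seq at 10 to 30 counts, and 0.19 in SMART-seq and 0.05 in standard RNA-seq over 1000 counts. Egr1, an immediate early transcription factor, shows how far a pair could part: 22 and 237 counts in SMART-seq, against 515 and 495 counts in standard RNA-seq, with no call (adjusted p = 0.206 by edgeR).

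Where the higher method averaged 200 counts or more, the largest single differences were of genes with few or no counts in the other. Unnamed models, pseudogenes and ribosomal protein copies were left out of this ranking. Whether the counts of these genes came from the whole transcript or from a short stretch was not tested. Ptcra, the pre-T-cell receptor alpha chain, had 3302 and 3203 counts in SMART-seq, against 6 and 8 counts in standard RNA-seq (log2 change 8.91 ± 0.20, adjusted p = 5.04e-05 by edgeR). Trim72, a membrane repair protein of muscle, had 1442 and 1289 counts in SMART-seq, against 3 in each standard library (8.85 ± 0.28). Snhg9, a small nucleolar RNA host gene of 183 bases, had 617 and 577 counts in SMART-seq, against 3 and 1 in standard RNA-seq, and its span overlaps Rps2 in RefSeq, so that reads of the 2 genes may not be separable. Xaf1, Ttc9b, Prr15, Gpha2 and Fam83a completed the 8 largest rises at that level, with log2 changes from 6.10 to 7.40 and at most 10 counts in any standard library. The largest falls were of genes at or near 0 in SMART-seq. Cdh24, a cadherin, had 0 counts in both SMART-seq libraries, against 346 and 275 in standard RNA-seq, and was at least 197-fold lower. Uhmk1, a kinase of splicing factors, had 0 in both, against 322 and 287, and was at least 193-fold lower. These bounds too cover counting error only. Foxo3, a forkhead factor of stress response, had 1 and 0 counts in SMART-seq, against 515 and 502 in standard RNA-seq. Ccdc85c, Lmln, Cbl, Dchs1 and Ccdc88c completed the 8 largest falls at that level, with at most 6 counts in any SMART-seq library and at least 242 in every standard one. Rn28s1, the 28S ribosomal RNA, which has no poly(A) tail, was also far apart: it took 0.0127% and 0.0120% of counts in SMART-seq, against 1.24% and 1.47% in standard RNA-seq. At 100 ng/mL the distance was smaller, with 0.00695% and 0.0063% in SMART-seq, against 0.0262% in the standard library.

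Most markers of other cell types were at or near 0 in both methods, apart from Gata1 and Gata3. Of 5 blood and endothelium markers, Hbb-bh1 was at 0 in all 4 libraries and Tal1 and Pecam1 had at most 2 counts; the summed level was 16.5 and 17.5 CPM in SMART-seq, against 5.10 and 4.27 CPM in standard RNA-seq, most of it Gata1 (log2 change 1.96 ± 0.32, adjusted p = 0.0113 by edgeR). Cdh5 had 43 and 1 counts in SMART-seq, against 9 and 11 in standard RNA-seq. The wider list of blood and endothelium genes had calls in both directions. Of its 7 tested genes, 2 were higher and 2 were lower, against 29.1% and 26.5% of all genes. Flt1 was lower, with 9.05 and 6.57 CPM in SMART-seq, against 45.5 and 44.7 CPM in standard RNA-seq. Of 4 trophoblast markers, Elf5, Tpbpa and Prl3d1 were at 0 throughout, and Gata3 had 14.5 and 16.4 CPM in SMART-seq, against 5.43 and 6.35 CPM in standard RNA-seq. In a wider trophoblast list of 5 tested genes, 3 were higher and 1, Eomes, was lower, against 29.1% and 26.5% of all genes. Krt7 of that list had 157 and 91.0 CPM in SMART-seq, against 8.68 and 7.81 CPM in standard RNA-seq. Visceral and parietal endoderm markers summed to 7.71 and 2.26 CPM in SMART-seq, against 0.705 and 0.843 CPM in standard RNA-seq, with Afp at 0 in all 4. Amn had 72 and 3 counts in SMART-seq, against 5 and 3 in standard RNA-seq. Ttr had 31 and 1 in SMART-seq, against 2 and 0, and Apoa1 had 11 and 37, against 1 in each standard library. Cubn had 12 and 0 in SMART-seq, against 5 and 11 in standard RNA-seq. Germ cell markers summed to under 1 CPM in every library. The 7 markers of the labelled cells had counts in all 4 libraries and summed to 1040 and 1060 CPM in SMART-seq, against 889 and 876 CPM in standard RNA-seq. In bulk libraries, fewer cells of a type and less RNA per cell cannot be told apart.

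At activin 100 ng/mL the length classes ran in the same order and the ribosomal proteins and large chromatin regulators lay on the same sides of the median of all genes, while the median of the lineage panel lay further below it than at 3 ng/mL. The panel medians rest on 21 tested genes at 3 ng/mL and 23 at 100 ng/mL, and their difference was not tested. Not all members moved that way: Pou5f1 had log2 changes of 0.28 at 3 ng/mL and 0.94 at 100 ng/mL. Of 14340 genes tested, 2761 (19.3%) were higher in SMART-seq and 1981 (13.8%) were lower, with 1 standard library that was assumed to vary like the other groups. Across the 12951 genes tested at both doses, the log2 changes of the doses, which share no library, had a Pearson's r of 0.76 and a Spearman's rho of 0.81, across genes. The calls at 100 ng/mL come from a joint fit of 7 libraries. Their spread therefore draws on the 3 ng/mL libraries, and the calls at the 2 doses are not independent. Of the 7203 genes called at 3 ng/mL, 59.0% were called in the same direction at 100 ng/mL, and of the 4714 of these genes called at 100 ng/mL, 90.2% were called in the same direction at 3 ng/mL; 24 genes were called in opposite directions. The median of cytosolic ribosomal proteins at 100 ng/mL was 3.39, with 80 of 82 genes higher and none lower, and that of large chromatin regulators was -2.06, with 1 of 45 higher and 33 lower. Ribosomal protein genes took 24.8% and 25.8% of counts in SMART-seq, against 6.94% in the standard library. Mixl1 and Lhx1 kept their directions, with log2 changes of 1.46 and -2.81, both past the threshold. The median log2 change of the lineage panel was -1.41 at 100 ng/mL, which is 1.18 below the median of all genes, with 2 of 23 tested genes higher and 5 lower. T had a log2 change of -1.01 ± 0.15 (adjusted p = 0.00454 by edgeR) and Foxa2 of -1.64 ± 0.26 (adjusted p = 0.00673) at 100 ng/mL, where neither was called at 3 ng/mL; the difference between the doses did not pass for either gene (adjusted p = 0.0922 and 0.290). The difference between the method contrasts at the doses, tested as an interaction, passed for 277 of 14340 genes (1.93%), 167 with a larger log2 change at 3 ng/mL and 110 with a smaller one. This count fell to between 12 and 23 when a library of the 3 ng/mL set was left out, and to 158 without the first SMART-seq library of the 100 ng/mL set. Among cytosolic ribosomal proteins, whose replicates lie close together, 33 of 82 passed, 12 with a larger log2 change at 3 ng/mL and 21 with a smaller one, while 80 were higher in SMART-seq at each dose.

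DP-seq, the method of the series that amplifies cDNA from defined heptamer primers, was set beside SMART-seq at the same dose; both ratios use the same standard libraries, so only the values of each are given. DP-seq from 50 pg (1 library) over standard RNA-seq had length-class medians of -0.08 under 1 kb and -0.05 at 8 kb and over, each relative to all genes, where SMART-seq had 3.42 and -1.47 by the same untested ratio. For the cytosolic ribosomal proteins the median relative to all genes was -0.03 in DP-seq from 50 pg and -0.57 in DP-seq from 10 ng (2 libraries), where SMART-seq had 3.44.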

How the data were processed

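Each library has 1 table that the authors deposited with counts of unique reads per RefSeq transcript, per the file headers. Of the 10 tables used, 4 hold whole counts throughout; the others hold 2 values each that are not whole, so these deposited tables were taken as estimated counts and each value was brought to the nearest integer. Per the labels' protocols, mRNA was purified from total RNA and copied into single-stranded cDNA. How reads were aligned and counted, on which strand and against which RefSeq release and build, is not given in the sources used here; reads that match several transcripts may be missing, and antisense or overlapping genes cannot be separated. Groups follow the labels, and 23 libraries were not used.

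Of 26566 transcripts, 25853 took a symbol from the table of RefSeq genes and 154 one from GENCODE, and counts were summed to 21844 genes; 559 transcripts kept their identifier. Lengths and GC content came from reference transcripts with the same accession (21040 genes), the length being that of the longest. Ribosomal RNA rows took at most 1.47% of any library. Genes were filtered with filterByExpr (minimum count 10, total 15), scaled by TMM and tested by quasi-likelihood in edgeR 4.0.16 (R 4.3.3), with Benjamini-Hochberg adjustment at 0.05; values after ± are standard errors. DESeq2 1.42.0, other scalings and filters, and fits without 1 library were alternatives. Class medians have no test of their own. Detection at equal depth used the hypergeometric expectation. Intervals are Wilson 95% (scipy 1.17.1), and fold bounds set a group at 0 to 3 counts over its libraries; both cover counting error only. The test was tried on simulated data. Tables and figures used pandas 2.3.3 and matplotlib 3.10.9.

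The members and lists were chosen with earlier results of these data known, and most lists hold genes picked for their length or role. Named genes are the panels, the 4 members per list that differed most at a mean of 50 counts or more in the higher group, and the 8 largest rises and falls at a mean of 200 counts or more, in the same direction in all 4 pairs of libraries; a selection is printed, and others are said to be chosen after their values were seen. Replicate numbers do not pair the libraries: over 7544 genes, the deviations of same-numbered libraries had a correlation of -0.006.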

Additional observations from a re-analysis of the deposited data

Results flagged for a closer look

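The size of the method difference was not the same at both doses for 25 of the named genes, by the interaction test in edgeR at an adjusted p of 0.05. Over all genes 277 of 14340 (1.93%) passed, and this number fell steeply when a library of the 3 ng/mL set was left out, as given above. Many named genes were picked for a large method difference, so the 25 are not to be set against that share. The values given for the 25 genes are the log2 change of SMART-seq over standard RNA-seq at 3 ng/mL minus that at 100 ng/mL, where standard RNA-seq has 1 library. Among ribosomal protein genes it was 3.18 for Rps26, 0.74 for Rpsa, 0.38 for Rps3, -0.39 for Rplp0, -0.92 for Rps21, -1.09 for Rps19, -2.18 for Rpl14 and -2.21 for Rpl39. Rps26 had 17898 and 18799 counts in SMART-seq at 3 ng/mL, against 1429 and 1427 in standard RNA-seq, and at 100 ng/mL 14763 and 16575 counts in SMART-seq, against 11289 in standard RNA-seq. Ribosomal protein genes have near-identical copies, so their unique counts are uncertain.

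The same holds for several other abundant genes with copies elsewhere in the genome: 2.45 for Gapdh, 1.52 for Aldoa, 0.43 for Ppia, -1.98 for Tuba1b and -2.14 for Oaz1. Genes of the mitochondrion and the proteasome had 1.44 for Mrpl42, -1.08 for Mrps14, 1.40 for Ndufa12, 0.76 for Uqcrb and 0.54 for Psmb6, and B2m, the light chain of MHC class I, had 1.88. Among long transcripts the difference was -0.74 for Chd4, -1.03 for Flna and -1.48 for Dync1h1, so that their deficit in SMART-seq was larger at 3 ng/mL.

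Among regulators it was -0.83 for Pou5f1. Rest, the repressor of neuronal genes, had a fitted value of 8.06, whose size depends on the prior count and is neither a measured size nor a bound, since 1 group is at 0. Rest had 59 and 91 counts in SMART-seq at 3 ng/mL, against 818 and 736 in standard RNA-seq, and 0 counts in both SMART-seq libraries at 100 ng/mL, against 354 in standard RNA-seq. Rn28s1, the 28S ribosomal RNA, had -4.73; its share in SMART-seq was at most 0.0127%, against 1.24% and 1.47% of counts in the standard libraries at 3 ng/mL and 0.0262% in the one at 100 ng/mL. Rps26, Rpl14, Tuba1b, Oaz1, Rest and Rn28s1 were chosen after their values were seen. What part the single standard library at 100 ng/mL has in these differences was not tested.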

How the results depend on the processing

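The direction of both length classes, of the ribosomal protein genes, of the large chromatin regulators and of the lineage panel relative to the median of all genes was the same under every alternative run. When each library was left out in turn, genes called higher at 3 ng/mL ran from 2202 to 5297 and genes called lower from 913 to 6273, the low ends without a standard library, where the spread comes from the SMART-seq pair alone and the lone library is assumed to vary like it. The median relative to all genes ran from 3.340 to 3.598 for ribosomal proteins, from -1.831 to -1.570 for chromatin regulators, from -0.397 to -0.142 for the lineage panel, from 3.590 to 3.945 under 1 kb and from -1.851 to -1.797 at 8 kb and over; the interaction calls ran from 12 to 212. With all genes kept, these medians were 3.704, -1.459, -0.065, 3.425 and -1.655. A minimum count of 50 gave 3.898 and the 7-library fit 3.650 for genes under 1 kb. Library totals gave 1968 genes higher and 6951 lower, a fold threshold of 2 in glmTreat gave 2020 lower, and DESeq2 gave 761 interaction calls. Same-numbered libraries do not deviate together (correlation -0.006), so the replicate block, which called 3255 genes higher and 2507 lower, stands only here; with the replicate block the medians were 3.681 for ribosomal proteins, -0.088 for the lineage panel, 3.946 under 1 kb and -1.680 at 8 kb and over. Without ribosomal RNA rows, ribosomal proteins took 7.81% of standard counts. For genes averaging 50 counts or more, the replicate SD was 0.642 in SMART-seq and 0.131 in standard RNA-seq. Library totals turned negative the values of Foxc1 (-1.12), Gata3 (-0.16), Gata6 (-1.17), Pou5f1 (-1.28), Rpl19 (-1.26), Rpl38 (-0.54), Sparc (-0.56) and T (-1.41), and Mesp1 ran from -0.60 to 0.75 when 1 SMART-seq library was left out. Of 28 lists and panels, 9 had a median relative to all genes that changed sign under at least 1 of 12 alternatives, all of them lists of lineage, stress or other cell types. The causes of these shifts were not tested where none is named. The SMART-seq libraries were the deeper pair and had the wider spread between replicates.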
